A study of Mus musculus with 27 samples.

Results

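The 5 genes described here encode the ligand, the decoy and the receptor of the RANKL system and the paired ligands of the CSF1 receptor. They were taken by name as Tnfsf11 (RANKL), Tnfrsf11b (osteoprotegerin, OPG), Tnfrsf11a (RANK), Csf1 and Il34, and all 5 were found among the 37991 genes in the files. The data were RNA sequencing profiles of calvarial cells from C57BL/6J mice that carried a Col3.6 CFP transgene, in which a type I collagen promoter drives a cyan fluorescent protein. Calvaria came from neonatal mice aged 5 to 9 days, the released cells grew for 4 days in 10% serum, and CFP-positive cells were sorted and put back into culture with ascorbic acid and 4 mM beta-glycerol phosphate. RNA was taken at 9 time points, every 2 days from day 2 to day 18 of differentiation, from 3 profiles each, 27 in all. All groups therefore shared strain, transgene, sort and medium and differed only in the day, with no untreated culture among them. The promoter limits the sort to cells active for type I collagen on the day of sorting, not at harvest, and the number of pooled animals was not given in the sources used here.

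RANKL on stromal and osteoblast-lineage cells binds RANK on myeloid precursors and drives their fusion and maturation into osteoclasts, the cells that resorb bone. OPG is a secreted decoy that binds RANKL and keeps it from RANK, so the balance of ligand and decoy made by the same cells sets the signal. CSF1 and IL-34 both bind the CSF1 receptor, which keeps osteoclast precursors alive and dividing.

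Transcripts of the decoy and of Csf1 were highest in the earliest culture and fell, RANKL had a smaller fitted fall, and Il34 rose. The ratio of RANKL to OPG had no trend with day that passed an adjusted p of 0.05. RANKL's own fall by the line did not pass it without day 2 or without day 4. OPG went from 95.4 CPM (counts scaled to a library sum of 1000000) on day 2 to 9.91 on day 14 and Csf1 from 1558 to 311 on day 16, while Il34 went from 3.06 to 16.3 CPM between days 2 and 18. RANK was the scarcest of the 5 and was highest at the end, with 3.98 CPM on day 18. In a straight-line fit over the 9 days, 4 of the 5 genes passed an adjusted p of 0.05, where 54.3% of the 15659 genes tested did. One member rose, against 28.3% of genes called as rises, and 3 fell, against 26.1% called as falls. A curved fit (a natural spline with 3 degrees of freedom) called 5 of 5, where 59.1% of all genes were called. Change with day was thus common in this culture.

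The labels number the 3 profiles of a day as replicates and the study's methods call them triplicate samples, but their names carry the same barcode in 3 lanes. They were therefore counted as 1 sample, so no day had a replicate and p-values measure the scatter of days about a fitted course. Profile totals ran from 7331125 to 20888956 estimated counts and day totals from 22470195 to 62009157, with a median of 43146793. The label calls the cells osteoblasts. Of 13 osteoblast and osteocyte markers, 6 rose, 1 fell and 3 were too low to test, where 28.3% of all genes rose and 26.1% fell. Their summed level ranged from 2144 TPM (abundance per transcript length) on day 2 to 5333 on day 18. Most of it was the collagen gene Col1a1, with a mean of 3149 TPM. Bglap (osteocalcin) had 1.24 TPM on day 2 and 208 on day 18, and Ibsp and Phex also rose, whereas Pdpn fell (fitted log2 change -0.98, adjusted p = 0.0130 by edgeR). Sp7 went from 32.3 to 10.6 TPM and was not called (-1.23, adjusted p = 0.233 by edgeR). Nor were Spp1 (-1.17, adjusted p = 0.0932 by edgeR) and Alpl (2.22, adjusted p = 0.146 by edgeR). Other cell types left transcripts too. Summed macrophage markers, chiefly the lysozyme gene Lyz2, went from 24.1 TPM on day 2 to 2020 on day 18, with 7 of 8 rising. Adipocyte markers went from a low of 3.21 TPM on day 6 to 407 on day 18, with all 5 tested rising. These counts stand beside 28.3% rises over all genes. Lymphocyte markers stayed between 0.0127 and 3.72 TPM, with 4 of 8 at 0 counts, and endothelial markers between 3.24 and 12.1 TPM. In such bulk samples, fewer cells of a type and less RNA per cell cannot be told apart.

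The promoters of 3 members, Csf1, Tnfsf11 and Tnfrsf11a, could be read from RefSeq's table, and all 3 are shown. Any link between these sequences and the courses of the genes was not tested. Each promoter is the 250 bases before the RefSeq start, 5′ to 3′ on the gene's strand, and each matched NCBIM37 exactly 1 time, directly upstream of the annotated gene. Capitals mark matches on either strand to any of 6 patterns. These were TATAA, which is the TATA box core, GGGCGG, which is a GC box core, and the CCAAT box. The RUNX core was searched as TGTGGT and the AP-1 core as TGANTCA. A loose NF-kB pattern was searched as GGGA followed by any 4 bases and then CC. The Tnfsf11 window is chr14:78707851-78708100, minus strand, the Csf1 window chr3:107563388-107563637, minus strand, and the Tnfrsf11a window chr1:107677050-107677299, plus strand.
Tnfsf11: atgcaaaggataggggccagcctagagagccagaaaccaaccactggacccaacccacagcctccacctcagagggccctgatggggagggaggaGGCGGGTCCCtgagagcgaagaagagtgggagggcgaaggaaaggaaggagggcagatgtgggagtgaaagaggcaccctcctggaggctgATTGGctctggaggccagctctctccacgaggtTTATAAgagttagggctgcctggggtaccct
Csf1: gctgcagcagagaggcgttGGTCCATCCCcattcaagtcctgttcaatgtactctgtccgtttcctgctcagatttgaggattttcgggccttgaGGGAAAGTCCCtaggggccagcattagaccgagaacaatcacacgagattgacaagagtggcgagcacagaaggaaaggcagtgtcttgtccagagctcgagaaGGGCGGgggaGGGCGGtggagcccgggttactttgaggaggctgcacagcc
Tnfrsf11a: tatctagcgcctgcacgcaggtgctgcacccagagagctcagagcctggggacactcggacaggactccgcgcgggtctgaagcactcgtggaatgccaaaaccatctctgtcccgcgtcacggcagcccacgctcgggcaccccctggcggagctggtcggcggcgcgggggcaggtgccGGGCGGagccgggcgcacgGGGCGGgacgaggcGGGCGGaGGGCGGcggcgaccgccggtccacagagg
The Tnfsf11 window held overlapping TATAA matches on opposite strands 31 and 30 bases before the start, a CCAAT match and an NF-kB pattern match, and had no GGGCGG. Csf1 held 2 GGGCGG and 3 NF-kB pattern matches, of which 2 overlapped, and no TATAA. The Tnfrsf11a window held 4 GGGCGG matches in its last 69 bases and none of the other patterns, with a GC content of 73.6%. Csf1 had 56.4% and Tnfsf11 60.4% GC, where the median of 27025 promoters of the same length was 52%. Among those promoters 23.5% held TATAA, 32.9% GGGCGG, 34.5% CCAAT, 14.2% TGTGGT, 6.87% TGANTCA and 17.3% the NF-kB pattern, so each match is of a pattern that many other genes share. The table held no entry for Tnfrsf11b and Il34.

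**Figure D1:**
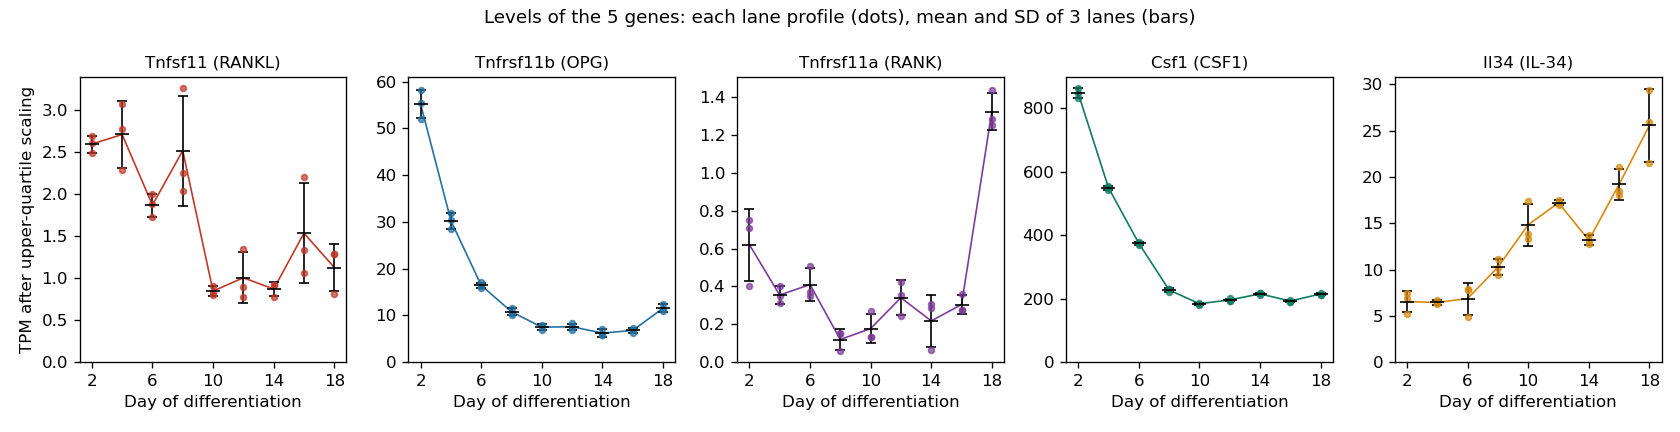
Upper-quartile scaled TPM of the 5 genes (vertical axes, each from 0 and with its own range) against day of differentiation. Dots are the 3 lane profiles of a day and black bars their mean and SD. Tnfrsf11b and Csf1 drop over the first days, Il34 climbs from 6.54 to 25.6 TPM, and Tnfrsf11a peaks on day 18 at 1.32 TPM.

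Tnfsf11 (ENSMUSG00000022015, NCBIM37 chr14:78677252-78707850, minus strand, 2 annotated transcripts) encodes RANKL, a membrane-bound cytokine of the TNF family. Its summed counts on days 2 to 18 were 134, 134, 98, 92, 22, 69, 44, 85 and 58, which is 3.13, 3.09, 2.14, 2.93, 0.992, 1.17, 0.991, 1.72 and 1.37 CPM. The 4 days up to day 8 were all above the 5 later days. Between days 2 and 18 the line had a log2 change of -1.40 ± 0.46 (SE, n = 9 days; adjusted p = 0.0240 by edgeR's quasi-likelihood test, 0.0198 with the spline). The largest single step lay between days 8 and 10, a log2 change of -1.57 with a 95% counting interval of -2.23 to -0.90. Only 736 counts lay behind the gene in all, and each day's 95% counting interval overlapped that of the next day in order of level. The call was lost without day 2 (adjusted p = 0.0731) and without day 4 (adjusted p = 0.0685), while the change stayed negative, at -1.36 and -1.28. Against day, its log2 CPM had a Spearman rho of -0.717 (exact permutation test, adjusted p = 0.0553) and a Pearson r of -0.717 (exact permutation test, adjusted p = 0.0557), with r of -0.665 without days 2 and 18. The gene thus lay on either side of the threshold by the fit over all genes and by the rank test. Per length, RANKL stood at 2.60 TPM on day 2 and 1.13 on day 18, and reached at least 1 TPM on 7 of 9 days.

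Tnfrsf11b (ENSMUSG00000063727, chr15:54082174-54110039, minus strand, 1 annotated transcript) encodes OPG, which has no membrane anchor and is released. It gave 4083, 2161, 1219, 562, 287, 688, 440, 528 and 788 counts on days 2 to 18, or 95.4, 49.8, 26.6, 17.9, 12.9, 11.7, 9.91, 10.7 and 18.6 CPM. The level dropped at each of the first 6 steps, by 0.94, 0.90, 0.57 and 0.47 on the log2 scale over the first 4 of them. Day 2 was 9.63 times day 14, the widest span among the members but for RANK. From day 16 to day 18 the level turned upward, with a log2 change of 0.79 (95% counting interval 0.64 to 0.95), and day 18 overlapped day 8 in its interval. The straight-line change was -2.55 ± 0.54 (SE, n = 9 days; adjusted p = 0.00269 by edgeR), and the spline's adjusted p was 3.83e-08. Against day, rho was -0.733 (exact permutation test, adjusted p = 0.0553) and r -0.805 (exact permutation test, adjusted p = 0.0128), and r was -0.920 without days 2 and 18. The rank test of OPG thus did not pass the threshold, whereas r, the spline and the line did. Leaving out day 2 gave -1.78 and leaving out day 18 gave -3.63, both still past the threshold. Per length it fell from 55.2 TPM on day 2, higher than 89.1% of the genes above 0, to 6.20 on day 14, higher than 51.9%.

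Ligand and decoy can be set against each other in each library, where depth and scaling cancel. OPG counts exceeded RANKL counts on every day, by 30.5, 16.1, 12.4, 6.11, 13.0, 9.97, 10.0, 6.21 and 13.6 times. The log2 ratio of RANKL to OPG counts was -4.93, -4.01, -3.64, -2.61, -3.71, -3.32, -3.32, -2.64 and -3.76 on days 2 to 18. It was lowest on day 2, rose over the next 3 time points and then went back and forth. The counting interval of day 2, -5.18 to -4.68, lay below that of every other day. Days 8 and 16 stood highest, with intervals of -2.93 to -2.29 and -2.96 to -2.31, and their lanes spread by an SD of 0.38 and 0.61. Over the 9 days the ratio had a Spearman rho of 0.433 with day (two-sided p = 0.250 by exact permutation, and 0.300 after adjustment for 6 relations) and a Pearson r of 0.561 (exact permutation p = 0.112, adjusted p = 0.135). Without days 2 and 18, r was 0.587 (n = 7, exact permutation p = 0.169). A monotonic trend of the ratio over the whole course did not pass the threshold. On TPM, which correct for the unequal transcript lengths, the ratio was -4.41 on day 2, -2.10 on day 8 and -3.36 on day 18. Its rho with day was 0.45. Over all 16 alternatives, which also left out lanes or days, rho ranged from 0.190 to 0.690, and none passed the threshold.

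**Figure D2:**
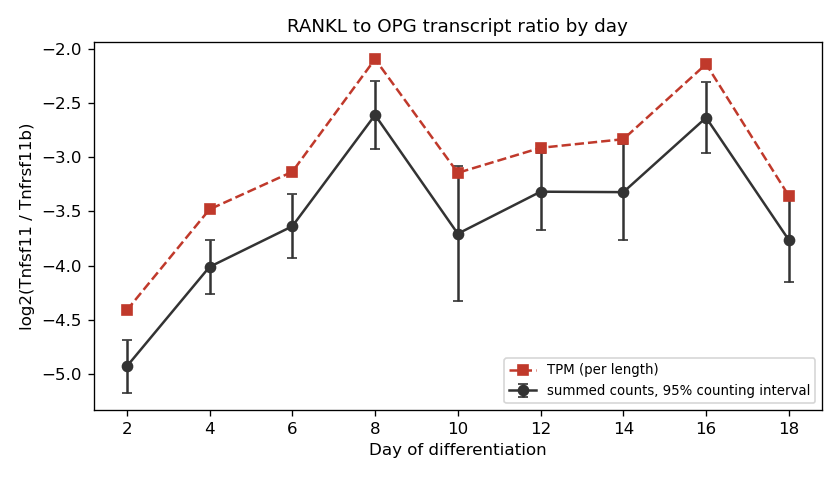
The log2 ratio of Tnfsf11 to Tnfrsf11b (vertical axis) against day. Black circles are ratios of summed counts with 95% counting intervals and red squares ratios of TPM. Both lines start lowest on day 2, at -4.93 in counts, and peak on days 8 and 16.

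Tnfrsf11a (ENSMUSG00000026321, chr1:107677300-107744558, plus strand, 1 annotated transcript) encodes RANK, the receptor through which RANKL acts. Its counts were 86, 48, 57, 12, 12, 57, 29, 45 and 169 on days 2 to 18, or 2.01, 1.11, 1.24, 0.383, 0.541, 0.967, 0.653, 0.912 and 3.98 CPM. The 3 lane profiles of day 18 held 52, 62 and 55 counts, which are lanes of the same library and no replicates of the day. The step from day 16 to day 18 was 2.13 on the log2 scale (95% counting interval 1.65 to 2.60), and day 18 was 10.4 times day 8. The straight line had a change of 0.66 ± 0.78 (SE, n = 9 days) with an adjusted p of 0.504 by edgeR, while the spline's adjusted p was 0.00825. Against day, rho was -0.100 (exact permutation test, adjusted p = 0.810). Direction and curve rested on the last day: without day 18 the line turned to -1.24 (adjusted p = 0.148) and the spline's adjusted p was 0.112. Per length RANK stayed between 0.119 and 1.32 TPM and passed 1 TPM on day 18 only. On that day it ranked above RANKL, the reverse of all 8 earlier days.

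Between days 16 and 18 the macrophage markers rose along with RANK, from a sum of 878 TPM to 2020, chiefly Lyz2 with 813 and 1855. From day 8 to day 16 the sum had already risen from 68.1 TPM, while RANK lay between 0.119 and 0.340 TPM. The sum was lowest on day 2, at 24.1 TPM, when RANK had 0.620 TPM. Csf1r, the receptor of CSF1 and IL-34 and a defining gene of macrophages, had 122, 67, 69, 63, 69, 342, 351, 575 and 1192 counts, with its highest level, 14.9 TPM, also on day 18. Ptprc (CD45, carried by blood-derived cells) had 101 counts on day 16 and 273 on day 18. On day 2, RANK had 86 counts, Csf1r 122, Lyz2 599 and Ptprc 8. The part of such cells in the RANK level was not tested.

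**Figure D3:**
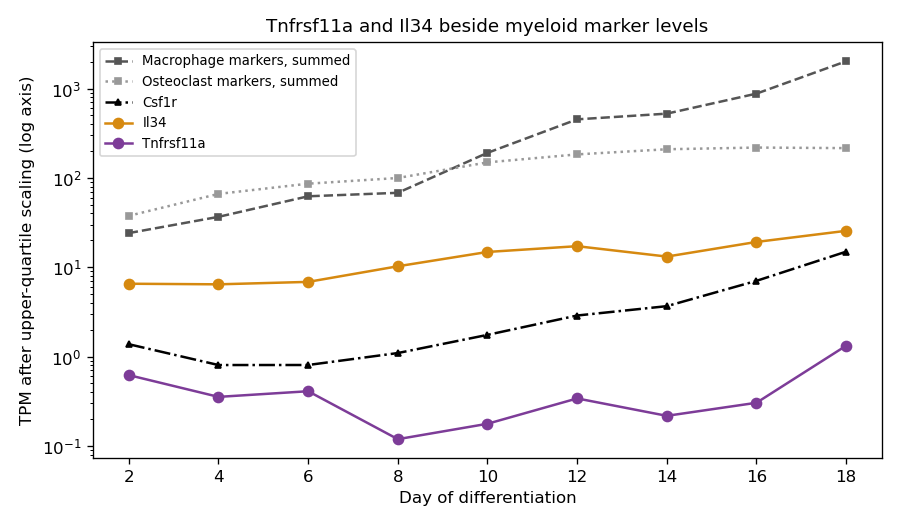
Upper-quartile scaled TPM (vertical log axis) of Tnfrsf11a and Il34, of the receptor gene Csf1r, and of 8 macrophage and 8 osteoclast markers summed, against day. The macrophage sum climbs from 24.1 to 2020 TPM and Csf1r reaches 14.9 TPM, while Tnfrsf11a stays under 1 TPM until day 18. The osteoclast sum is chiefly Ctsk.

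Csf1 (ENSMUSG00000014599, chr3:107543966-107563387, minus strand, 7 annotated transcripts) encodes the main growth factor of the macrophage lineage. It was by far the most abundant member, with 66632, 41840, 28849, 12541, 7467, 18461, 16122, 15320 and 15395 counts on days 2 to 18. In CPM these were 1558, 963, 629, 400, 337, 313, 363, 311 and 363. The level dropped over the first 4 steps, with log2 changes of -0.69, -0.61, -0.65 and -0.25, and from day 10 on lay between 311 and 363 CPM. The straight-line change was -2.06 ± 0.38 (SE, n = 9 days; adjusted p = 0.00109 by edgeR), and the spline's adjusted p was 4.21e-08. Against day, CPM on the log2 scale had a rho of -0.817 (exact permutation test, adjusted p = 0.0323) and an r of -0.842 (exact permutation test, adjusted p = 0.00398), with r of -0.856 without days 2 and 18. Per length, Csf1 went from 848 TPM on day 2 to 184 on day 10 and 215 on day 18, and never ranked below 97.1% of the genes above 0.

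Il34 (ENSMUSG00000031750, chr8:113265729-113329824, minus strand, 5 annotated transcripts) encodes IL-34, a cytokine with no sequence kinship to CSF1 that uses the same receptor. Its counts were 131, 155, 229, 164, 167, 558, 408, 645 and 693 on days 2 to 18, and its CPM 3.06, 3.57, 4.99, 5.23, 7.53, 9.46, 9.19, 13.1 and 16.3. In CPM, only the step from day 12 to day 14 went down, by 0.04 on the log2 scale, within its counting interval of -0.23 to 0.14. In TPM that step was larger, from 17.2 to 13.2, and days 2 and 4 stood at 6.54 and 6.44. The fitted change was 2.39 ± 0.17 (SE, n = 9 days; adjusted p = 1.10e-05 by edgeR), and the spline's adjusted p was 3.03e-06. Against day, rho was 0.983 (exact permutation test, adjusted p = 0.000298) and r 0.990 (exact permutation test, adjusted p = 6.61e-05), and r stayed at 0.979 without days 2 and 18 (n = 7, exact permutation p = 0.000794). Per length it went from 6.54 to 25.6 TPM, a path that also carries a shift in the estimated effective length, which ranged from 590 to 1430 bases over the profiles. Il34 overlaps Gm15894 and Gm15895 on the opposite strand, which had 86 and 26 counts in all. No strand setting was stated, so reads could be shared between them.

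The paired ligands of the CSF1 receptor thus changed in opposite directions. Csf1 stood at 130 times Il34 per length (TPM) on day 2, 22.2 times on day 8 and 8.41 times on day 18. The log2 ratio of Il34 to Csf1 counts was -8.99 on day 2, -6.26 on day 8 and -4.47 on day 18. Csf1 nevertheless remained the more abundant ligand on all 9 days. In order of TPM, the members ran Csf1, Tnfrsf11b, Il34, Tnfsf11, Tnfrsf11a on days 2 to 8, and Il34 stood above Tnfrsf11b from day 10 on.

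Across the 9 days, Tnfrsf11b and Csf1 had the most similar course of any member pair (r = 0.976), given here as a description of 9 points that share libraries and scaling. Tnfsf11 followed both less closely, with r of 0.786 to Tnfrsf11b and 0.75 to Csf1. Il34 ran against all 3, with r of -0.738, -0.799 and -0.847 to Tnfsf11, Tnfrsf11b and Csf1. Tnfrsf11a was near none of them, with r from 0.102 to 0.436. The lanes of a day had a chi-square per degree of freedom from 0.919 for Il34 to 1.64 for Tnfrsf11b. Only Tnfrsf11b spread beyond counting error at an unadjusted threshold of 0.05 (chi-square test, p = 0.0414, the lowest of 5).

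**Figure D4:**
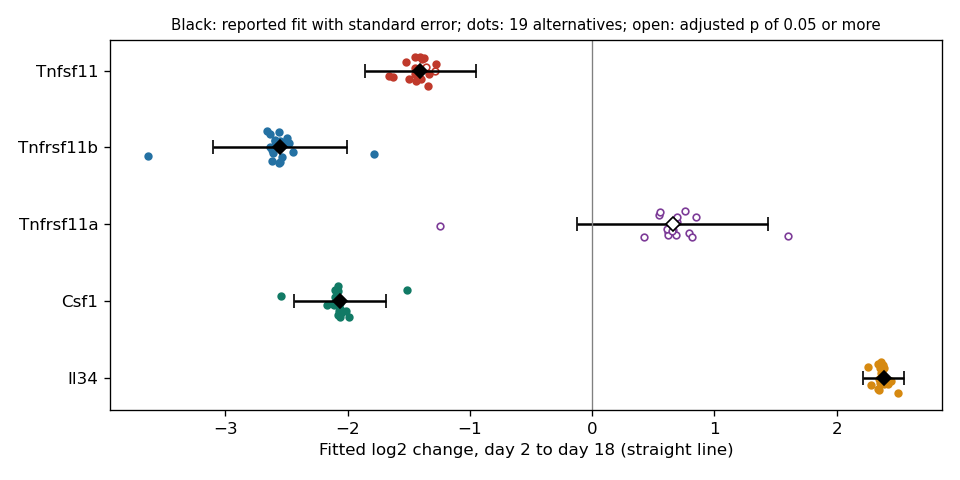
Fitted straight-line log2 change from day 2 to day 18 (horizontal axis) for each member. Black diamonds with bars are the reported change and its SE, and dots are 19 alternative fits, open where the adjusted p was 0.05 or more. Tnfrsf11a crosses 0 without day 18, at -1.24, and the other 4 genes keep their side.

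Among genes with a mean of at least 10 TPM, the 3 most similar to each member were named by Pearson's r over the same 9 days, a description from a search through 7618 or 7619 genes. For Tnfsf11 these were Nipsnap3b (r = 0.972), Rnpc3 (0.971) and Gm13835 (0.968), and for Tnfrsf11a Ogdh (0.944), Rab35 (0.893) and Rab1b (0.883). Tnfrsf11b was closest to Slco2a1, a prostaglandin transporter that went from 45.3 to 8.25 TPM, and to Hdgf and Psmd11, all with r = 0.988. Csf1 was closest to Asap1 (r = 0.997), to Inhba (0.994), the activin A subunit gene, which went from 1211 TPM on day 2 to 204 on day 18, and to Pus7 (0.993). Il34 was closest to Lyz2 (r = 0.994), the lysozyme gene of macrophages, then to Creg1 and Mgrn1 (r = 0.991 each). Lyz2 went from 19.9 to 1855 TPM, so the rise of Il34 moved with that of a macrophage marker whose part in it was not tested.

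Downstream of RANK, 3 of 22 listed adaptors, kinases and transcription factors rose and 8 fell, where 28.3% of all genes rose and 26.1% fell, with a median fitted log2 change of -0.23 beside 0.051 over all genes tested. Gab2 (1.34 ± 0.31, adjusted p = 0.00462), a RANK-associated adaptor, Tab1 (1.10 ± 0.30) and Nfkb1 (0.55 ± 0.17) rose. Nfatc1, the master transcription factor of osteoclast formation, fell (-1.45 ± 0.24, adjusted p = 0.000597) from 21.0 TPM on day 2 to 7.57 on day 18, and Jun, an AP-1 subunit, fell by 1.44 (SE 0.28, n = 9 days). Tab2 was the most abundant, with 89.0 TPM on day 2 and 107 on day 18 and an adjusted p of 0.113 by edgeR. These factors are in use in many cell types. Without day 2 the list held 1 rise and 4 falls.

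On the side of the CSF1 receptor, 6 of 10 genes rose and 1 fell, with a median of 1.27, where 28.3% of all genes rose and 26.1% fell. Spi1 (PU.1, a myeloid transcription factor) went from 0.0191 TPM on day 2 to 8.06 on day 18 and rose with Csf1r (3.68 ± 0.55, adjusted p = 0.000367) and Vav3 (2.94 ± 0.53), an exchange factor. Cbl, the ubiquitin ligase that turns the receptor over, fell (-1.03 ± 0.15) and had the highest mean of the list, 41.9 TPM.

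Among 16 genes of osteoclast co-stimulation and resorption, 7 rose and 1 fell of 14 tested, with a median of 2.39, where 28.3% of all genes rose and 26.1% fell. The immunoreceptor adaptors Tyrobp and Fcer1g and the receptor Trem2 had the largest rises, Tyrobp from 0 TPM on day 2 to 46.4 on day 18, Fcer1g from 0.944 to 119 and Trem2 from 0.0509 to 10.2. All of these are also made by macrophages. Ctsk (cathepsin K), highest of the list with a mean of 129 TPM, rose from 36.5 to 193 TPM, whereas Tcirg1, a subunit of the proton pump, fell (-1.75 ± 0.37). Acp5 (tartrate-resistant acid phosphatase) rose from 0.618 to 16.8 TPM (4.36 ± 0.56, adjusted p = 0.000168 by edgeR). Atp6v0d2, another proton pump subunit, rose from 0.0129 to 3.43 TPM. Mmp9, a matrix protease, was called as a rise, with 0.320 TPM on day 2, 2.93 on day 14 and 1.38 on day 18. By edgeR, Ocstamp (2.49, adjusted p = 0.119), Itgb3 (0.47, adjusted p = 0.250) and Clcn7 (0.05, adjusted p = 0.828) were not called. Nor were Ostm1 (-0.18, adjusted p = 0.207 by edgeR) and Car2 (-1.82, adjusted p = 0.136 by edgeR). Calcr, the calcitonin receptor of mature osteoclasts, and Dcstamp, needed for their fusion, had 0 counts in all 27 profiles, and Oscar had 124 counts and a change of -0.12 (adjusted p = 0.932 by edgeR). Osteoclast markers summed to 37.6 TPM on day 2, of which Ctsk was 36.5, and to 219 on day 16, of which Ctsk was 200. The sum therefore mainly follows that 1 gene.

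Hormone and cytokine receptors listed here as upstream of the RANKL gene included 3 rises and 2 falls among 12 genes, with a median of 0.22. Over all genes 28.3% rose and 26.1% fell, so the counts of this short list are not read as apart from the background. Vdr, the vitamin D receptor, fell (-1.66 ± 0.21, adjusted p = 0.000135) from 40.5 to 12.9 TPM, and Osmr, the oncostatin M receptor, fell (-1.40 ± 0.25). Lifr (3.91 ± 0.52), the receptor of LIF, Il11ra1 (3.35 ± 0.41), that of interleukin 11, and Ghr (1.99 ± 0.26), that of growth hormone, rose. Il6st, the gp130 subunit that the interleukin 6 family shares, had the highest mean, 251 TPM, and an adjusted p of 0.659 by edgeR. Pth1r, the parathyroid hormone receptor, had 8.99 TPM on day 2, 3.39 on day 8 and 10.1 on day 18, and an adjusted p of 0.341 by edgeR.

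Other stromal factors that act on osteoclasts or their precursors included 6 rises and 8 falls among 18 genes, with a median of -0.14, beside 28.3% rises and 26.1% falls over all genes. Ptgs2 (COX-2, the inducible enzyme of prostaglandin synthesis) fell most (-8.57 ± 0.87, adjusted p = 5.16e-05), from 362 TPM on day 2 to 1.81 on day 18, and the cytokine Lif fell by 4.64 (SE 1.00, n = 9 days). Sfrp1, a secreted Wnt antagonist, rose (5.51 ± 0.94) from 25.9 to 885 TPM and was the most abundant of the list, followed in size of rise by Cxcl12 (4.66 ± 0.65), a chemokine that holds hematopoietic cells in marrow. Wnt16 also rose in counts (4.19 ± 0.71), although its TPM was 18.6 on day 2 and 6.27 on day 18. The cause of that difference between counts and TPM was not tested.

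**Figure D5:**
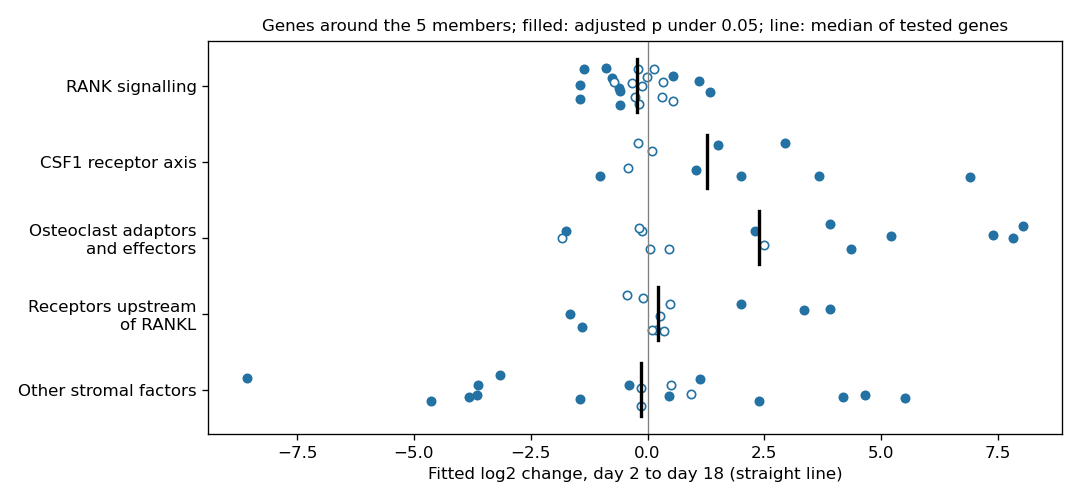
Fitted straight-line log2 change from day 2 to day 18 (horizontal axis) of each tested gene in 5 lists around the members. Filled dots had an adjusted p under 0.05 and black bars are the list medians. The medians run from -0.23 for RANK signalling to 2.39 for osteoclast adaptors and effectors.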

How the data were processed

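The members and gene lists were chosen with earlier results of these data known. Per the labels, the authors used Bowtie 0.12.9, RSEM 1.2.8 and NCBIM37. The deposited expected counts (estimated counts) are RSEM's sums per gene, unnormalized, and the deposited TPM and FPKM values divide them by effective length. Expected counts were summed over the 3 lanes of a day, rounded and fitted with edgeR 4.0.16 (glmQLFit, glmQLFTest) over 9 libraries, with upper-quartile factors, a minimum count of 10 in filterByExpr and Benjamini-Hochberg adjustment over all 15659 genes tested. CPM used the same factors, and levels are TPM scaled by the upper quartile, as in the study's own plots, with SD over lanes. Intervals are 95% Wilson intervals, transformed for ratios, and cover counting error only, since amplified reads without molecular identifiers are not independent molecules. Exact permutation tests enumerated every order of 9 days. DESeq2 1.42.0 and limma 3.58.1 (pseudocount 1) served as alternatives. The search for similar genes used log2(CPM + 0.5), and correlations of members with each other and with day used log2 CPM. Genes were named as the members, the 3 most similar genes per member, and in each list up to 3 rises, 2 falls and the highest mean TPM, with Csf1r, Calcr and Oscar. Pth1r, Dcstamp, Ptprc, Acp5, Atp6v0d2, Mmp9, Ocstamp, Itgb3, Clcn7, Ostm1 and Car2 were chosen after their values were seen. Older symbols of 4 listed genes were matched through RefSeq synonyms. The line fit was also run on simulated counts. Their noise (common dispersion 0.0191) was taken from the spline fit and lay below that of the line fit (0.0581), so no conclusion is drawn from it. Replicate numbers did not pair profiles across days.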

Additional observations from a re-analysis of the deposited data

How the results depend on the processing

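Of 262 recomputed values for the fitted changes, spline tests, ratio and counts of called genes, 254 were unchanged. For changes, tests and the ratio this means the same side of the threshold and, where there is one, the same direction. For the counts of called genes it means only a count near the reported one. With the gene-list counts and mean levels included, 659 of 707 values were unchanged and 40 moved. Leaving out 1 day or lane moved the Tnfsf11 change between -1.66 and -1.27 and its spline's adjusted p between 0.0111 and 0.0803, with the threshold missed without day 2, 4, 12 or 14 for the spline and without day 2 or 4 for the line. Tnfrsf11a moved between -1.24 and 1.60, turning without day 18 (-1.24), and its spline's adjusted p between 0.00275 and 0.112. The cause was not tested. Fits over 27 profiles with the replicate block gave -1.42, -2.62, 0.70, -2.06 and 2.37 for Tnfsf11, Tnfrsf11b, Tnfrsf11a, Csf1 and Il34 and changed no member's call by the line, and same-numbered profiles correlated at 0.00598 on average, so the numbers do not pair samples. Scaling by total counts alone moved the median change of all genes from 0.051 to -0.0735 and turned no member. Genes called by the line ranged from 7187 to 10881 and by the spline from 7390 to 12552. The limma change on log2(TPM + 1) was -0.90 for Tnfsf11 and 1.86 for Il34, beside -1.40 and 2.39 in counts. The cause was not tested. Depth limits Tnfsf11 and Tnfrsf11a most, with as few as 22 and 12 counts in a day. Of 8 steps between neighbouring days, 4 of Tnfsf11 and 5 of Tnfrsf11a had a counting interval that included 0.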
